A study of Mus musculus with 14 samples.

Results

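The cytosolic ribosomal proteins were taken as the UniGene clusters whose deposited title begins with ribosomal protein L, ribosomal protein S or the large-subunit form used for the stalk proteins P1 and P2, kinases left out. The rule found 111 clusters among 22221 genes. They carried 79 distinct names, 46 of the large subunit, 32 of the small subunit and 1, Rps19bp1, a partner of Rps19 that is not itself part of the ribosome. Together they held 1386895 of the 36348805 counts assigned to genes.

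The counts come from 14 libraries of C57BL6 mouse total RNA, 1 from males and 1 from females for each of 7 tissues: the blood-forming bone marrow, the liver, the stomach, 2 glands (pancreas and parotid) and 2 nervous tissues (hippocampus and spinal cord). No treatment or mutation is given in the labels, and neither are the ages or the number of animals behind a library. The liver titles name the left lobe for the male and the right lobe for the female library, so lobe and sex cannot be told apart there. The assay is massively parallel signature sequencing, in which cDNA is cut at GATC by the enzyme DpnII and the 20 bases at the site nearest the 3′ end are read and counted. A transcript gives 1 tag, so counts are not scaled by length, although tags of different genes may be captured unequally.

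The cytosolic ribosome joins a small subunit, which reads the mRNA, to a large subunit, which forms the peptide bond. Each holds ribosomal RNA and a fixed set of proteins, called S and L proteins, nearly all needed in 1 copy per ribosome. Their mRNAs are among the most abundant of a cell and many begin with a run of pyrimidines, the 5′ terminal oligopyrimidine (TOP) tract, through which the growth-signalling kinase mTOR sets their translation. Processed pseudogenes of these genes are common in mammalian genomes, so a tag may be shared between a gene and its copies.

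The tags that stand for the 6 most abundant proteins are shown here because much of what follows rests on them. Capitals mark the GATC site, and the 16 bases after it identify the transcript.
Rps23: GATCataaaatttgacaatg
Rps29: GATCatgctagtctttgtac
Rpl41: GATCgcctggagaaatgacc
Rpl19: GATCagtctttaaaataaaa
Rps2: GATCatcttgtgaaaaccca
Rplp1: GATCaatgccctcattaaag
The accession of the cluster titled S23 belongs to Gm5148, a gene model, in the RefSeq table, so its counts are assigned to Rps23 by title. The same table matched 32 of the 111 accessions, 8 of them to a gene of another symbol, and all 79 names.

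Libraries held 2194028 to 3834568 counts, of which 1922511 to 3460794 were assigned to genes. Every tested marker in each tissue's own list of 6 to 8 genes was called higher in that tissue. Markers of other tissues were present too. Summed bone marrow markers stood at 3138 CPM (gene counts scaled to a common library total) in the male and 2719 CPM in the female spinal cord library, against 144251 and 140777 CPM in the male and female bone marrow libraries. Pancreatic enzymes summed to 3009 and 4295 CPM in the male and female stomach libraries, against 617703 and 637238 CPM in pancreas. In such bulk samples, fewer cells of a type and less RNA per cell cannot be told apart. In addition, the male stomach library stood apart from the female one for the ribosomal proteins, as described below, and the counts of calls in the other tissues are given with and without both stomach libraries.

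Ribosomal protein tags took the largest share of gene counts in bone marrow and the smallest in pancreas. The share was 8.67% in the male and 8.92% in the female bone marrow library, whose exact (Clopper-Pearson) 95% intervals reached from 8.64% to 8.70% and from 8.89% to 8.96%. Stomach followed with 4.55% in the male and 5.74% in the female library. Hippocampus had 3.83% and 3.81%, spinal cord 3.71% and 3.54%, liver 2.47% and 2.75%, parotid 2.05% and 2.03%, and pancreas 1.29% and 1.37% in the male and female libraries. The libraries of hippocampus and spinal cord did not overlap with each other, and neither overlapped with those of liver. These intervals cover counting error only. The means were 8.80% ± 0.179, 5.15% ± 0.841, 3.82% ± 0.0108, 3.62% ± 0.125, 2.61% ± 0.203, 2.04% ± 0.0111 and 1.33% ± 0.0498 (SD, n = 2 each) from bone marrow down to pancreas.

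That order depends on what else is in the library. The 10 most abundant genes took 80.3% ± 0.155 of gene counts in pancreas and 76.7% ± 0.388 in parotid, against 19.5% ± 1.26 in spinal cord and 21.6% ± 0.289 in hippocampus (SD, n = 2 each). With those 10 genes taken out of each library, the ribosomal share became 15.3% in bone marrow, 9.38% in stomach, 8.78% in parotid, 6.75% in pancreas, 4.87% in hippocampus, 4.51% in spinal cord and 3.91% in liver. A ratio to another ribosomal group does not use the library total. Counts of cytosolic over mitochondrial ribosomal protein clusters (73 clusters, which build the ribosome of mitochondria) came to 43.04 ± 3.26 in pancreas, 36.2 ± 0.750 in bone marrow, 24.1 ± 0.704 in parotid and 21.6 ± 0.808 in stomach. Hippocampus had 13.2 ± 0.261, spinal cord 11.8 ± 0.651 and liver 11.02 ± 0.173 (SD, n = 2 each). The libraries of every one of the first 4 tissues lay above those of the last 3.

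**Figure D1:**
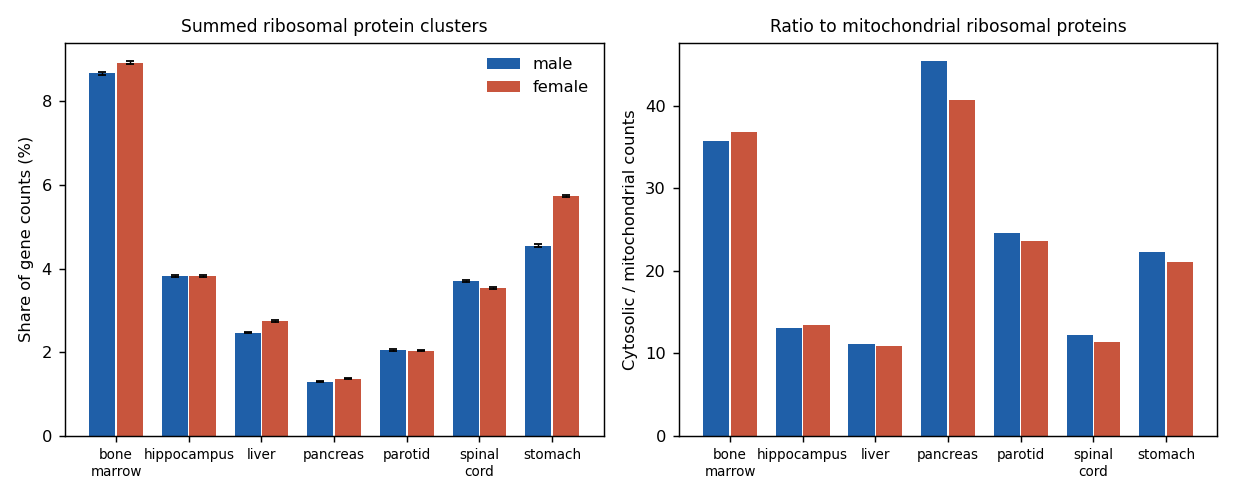
Left, share of gene counts taken by the 111 ribosomal protein clusters in the male and female library of each tissue (bars; error bars are exact 95% intervals). Right, the ratio of their counts to those of the mitochondrial ribosomal proteins: bone marrow leads on the left with 8.67% and 8.92%, while pancreas, lowest on the left, has the highest ratio on the right.

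With all clusters summed, the 2 subunits took similar shares of the ribosomal counts. Large subunit clusters made up 49.0% ± 0.323 in bone marrow, 52.6% ± 0.261 in hippocampus and 54.6% ± 0.560 in pancreas (SD, n = 2 each), with the means of the other tissues between. The male and female libraries differed in stomach, at 54.1% and 47.9%, and in liver, at 54.5% and 50.3%. Without the 5 most abundant clusters the large subunit share was 56.7% in bone marrow, 62.6% in hippocampus and 57.7% in pancreas. Within the group the levels were uneven. The 50 clusters with 10000 or more counts held 93.2% of the ribosomal counts and the 5 most abundant held 24.8%, while 27 clusters had under 100 counts. Of the 79 names, 27 had more than 1 cluster, and 95.7% of the counts lay in the leading tag of each cluster. Names with almost no counts include Rpl36, with 5 counts, and Rps21, with 10, although both are parts of every ribosome. Titles outside the rule include ribosomal protein 10, with 23282 counts, the stalk protein P0, with 22682, and a transcribed locus similar to S18, with 12176.

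Rps23, which sits at the decoding centre of the small subunit, led with 8305 and 7268 CPM in the male and female bone marrow libraries, against 443 to 5384 CPM (median 949) in the other 12. Rps29, a small zinc-binding protein of the small subunit, had 4919 and 5922 CPM in bone marrow, against 654 to 4897 CPM in the others. The 2 bone marrow libraries lay above all others for both genes. Rpl41, the smallest protein of the large subunit, averaged 3579 ± 54.7 CPM in bone marrow and 914 ± 93.0 CPM in pancreas, its lowest tissue. Rpl19 averaged 3431 ± 128 CPM in bone marrow and 266 ± 26.2 CPM in pancreas. Rps2, at the mRNA entry channel, averaged 4055 ± 466 CPM in bone marrow and 311 ± 16.3 CPM in pancreas (SD, n = 2 each). For Rpl19, the female stomach library, at 3582 CPM, was above both bone marrow libraries, and the male one, at 243 CPM, below every other library.

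The acidic stalk proteins, which recruit the elongation factors, differed from each other in stomach. Rplp1 had 786 and 1210 CPM in the male and female stomach libraries, within its range elsewhere. Rplp2 had 2601 and 879 CPM there, against 217 to 1233 CPM (median 423) in the other 12 libraries, and its fold was 1.37 ± 0.29 on the log2 scale (SE, edgeR quasi-likelihood test, adjusted p = 0.00159). Only the male stomach library lay above all the others.

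Each tissue was then tested against the mean of the other 6 with edgeR's quasi-likelihood test after TMM scaling, which sets the libraries to a common level over most genes. A cluster was called at a Benjamini-Hochberg adjusted p under 0.05 over all 14682 genes tested and a fold of at least 2. Of the 111 clusters, 89 passed the filter on low counts. The 22 that did not had at most 53 counts each.

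In bone marrow, the blood-forming tissue, 35 of the 89 clusters were called higher, against 19.6% of all genes, and 0 lower, against 14.3% of all genes. Both libraries lay above all 12 others in plain CPM for 44 clusters, against 13% of all genes. Rpl7 had 1210 and 1534 CPM in the male and female bone marrow libraries, against 172 to 496 CPM (median 340) in the others, without overlap. Its log2 fold was 1.45 ± 0.24 (SE, edgeR, adjusted p = 8.52e-05). Rps3, which lines the mRNA channel and also cuts damaged DNA in vitro, had 2023 and 2170 CPM, against 125 to 940 CPM, a log2 fold of 1.43 ± 0.24 (SE, edgeR, adjusted p = 0.000105). Rps7 followed at 1.28 ± 0.23 (SE, edgeR, adjusted p = 0.000216), with 1204 and 1242 CPM against 132 to 461 CPM. The median cluster stood at 0.88 on the log2 scale and the median of all genes at -0.19, a gap of 1.07. With library totals as the scale 67 clusters were called higher and 0 lower, against 31.7% and 8.49% of all genes. Without both stomach libraries 44 of 88 tested clusters were higher and 1 lower, and 33 of the 35 calls were kept. Over all genes 3092 were then higher and 2313 lower, against 2882 and 2105 with the stomach libraries in. Without the female bone marrow library 20 clusters were called.

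In hippocampus 53 of the 89 clusters were called lower and 3 higher, against 12.9% and 28.0% of all genes. In spinal cord 55 were lower and 3 higher, against 8.67% and 27.3% of all genes. Of the 89 clusters, 48 were called lower in both nervous tissues. The share of all genes lower in both was not taken, and it cannot exceed the 8.67% lower in spinal cord. The direction holds relative to other genes and not on the plain scale: with library totals 14 clusters were higher and 1 lower in hippocampus, against 59.5% and 3.24% of all genes, and 13 higher and 1 lower in spinal cord, against 67% and 1.07% of all genes. The share of members called higher thus lay below that of all genes on this scale too. Under TMM the median member stood at -1.30 in hippocampus and -1.29 in spinal cord, against 0.15 and 0.25 for all genes. With library totals the medians were 0.05 and 0.22, against 1.45 and 1.69 for all genes. The gap to the median gene was thus -1.45 and -1.55 with TMM, and -1.40 and -1.47 with library totals. The 2 tissues are each in the other's comparison group, so their calls are not independent. Without both stomach libraries 4 of 88 tested clusters were higher and 59 lower in hippocampus, and 4 higher and 61 lower in spinal cord. Over all genes 4337 were then higher and 1991 lower in hippocampus, against 4116 and 1891 with the stomach libraries in. In spinal cord 4276 genes were then higher and 1373 lower, against 4004 and 1273. Without the male hippocampus library 30 clusters were called in hippocampus, and without the male cord library 28 in spinal cord.

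Named by the smallest adjusted p, the clusters lower in hippocampus included Rps27l, Rpl23 and Rpl39. Rpl39, at the tunnel through which the new chain leaves, had 95.3 and 95.2 CPM in the male and female hippocampus libraries, against 60.7 to 629 CPM, a log2 fold of -2.21 ± 0.36 (SE, edgeR, adjusted p = 5.65e-05). In spinal cord, Rpl39 had 102 and 104 CPM and a log2 fold of -2.22 ± 0.36 (SE, edgeR, adjusted p = 6.81e-05), beside Rps27l, Rps12 and Rps27. In plain CPM the hippocampus and cord libraries lay inside the range of the others for Rpl39, since the pancreas libraries were lower still. Of 7 bone marrow markers, 6 were called higher in spinal cord, and their part in the cord values was not tested.

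Pancreas gave the reverse of its share. Under TMM 53 of the 89 clusters were called higher and 0 lower, against 6.33% and 3.24% of all genes, whereas with library totals 1 was higher and 74 were lower, against 1.31% and 71.0% of all genes. The median member was 1.41 with TMM, against -0.59 for all genes, and -1.64 with library totals, against -3.26 for all genes. Relative to the median gene the ribosomal proteins were therefore higher by 1.99 with TMM and by 1.62 with library totals. The size of this gap varied with the method. It was 1.65 with DESeq2 and 1.35 with limma voom, where the median of all genes stood at -0.13 and 0.06. Rpsa, the laminin receptor and a late part of the small subunit, had 287 and 317 CPM in the male and female pancreas libraries, against 268 to 1813 CPM (median 450) in the others. Its log2 fold was 2.27 ± 0.24 with TMM (SE, edgeR, adjusted p = 1.25e-06) and -0.77 with library totals. Rps27a, made as a fusion with ubiquitin, had 256 and 341 CPM, against 331 to 1181 CPM, and log2 folds of 2.19 ± 0.23 with TMM (SE, edgeR, adjusted p = 1.47e-06) and -0.84 with library totals. Rps4x, the X-linked form of S4, had 347 and 389 CPM, below all 12 others at 424 to 1880 CPM, and log2 folds of 2.15 ± 0.24 with TMM (SE, edgeR, adjusted p = 2.55e-06) and -0.89 with library totals. In plain CPM both pancreas libraries were below all others for 56 clusters, against 50.4% of all genes. When both stomach libraries were left out, 57 of 88 tested clusters were higher and 1 lower. Over all genes 1237 were then higher and 963 lower, against 929 and 476 with the stomach libraries in. Without the male pancreas library 25 clusters were called.

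Few clusters were called in liver, parotid and stomach. Liver had 2 clusters higher and 1 lower of 89, against 18.5% and 10.1% of all genes, and parotid 2 higher and 1 lower, against 11.1% and 3.86% of all genes. In parotid, library totals gave 0 higher and 17 lower, against 5.12% and 23.6% of all genes. Stomach had 10 higher and 3 lower, against 17.9% and 3.93% of all genes. Rps16, beside the decoding site, led the stomach calls with 1885 and 4483 CPM in the male and female stomach libraries, against 346 to 2966 CPM (median 577) in the others. Its log2 fold was 1.81 ± 0.30 (SE, edgeR, adjusted p = 0.000161). With an offset per library for the G and C bases of each gene's leading tag, 7 clusters were higher and 2 lower in stomach. Over all genes 2566 were higher and 768 lower in stomach with the offset, against 2631 and 577 without it. The cluster counts in liver, parotid and stomach moved with single stomach libraries. Without the male stomach library 14 clusters were called in liver and 12 in parotid, and without the female one 30 were called in stomach. With both left out, 6 of 88 tested clusters were higher and 7 lower in liver, and 6 higher and 4 lower in parotid. Over all genes 2977 were then higher and 1842 lower in liver, against 2709 and 1480 with the stomach libraries in. In parotid 2082 genes were then higher and 944 lower, against 1629 and 567.

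**Figure D2:**
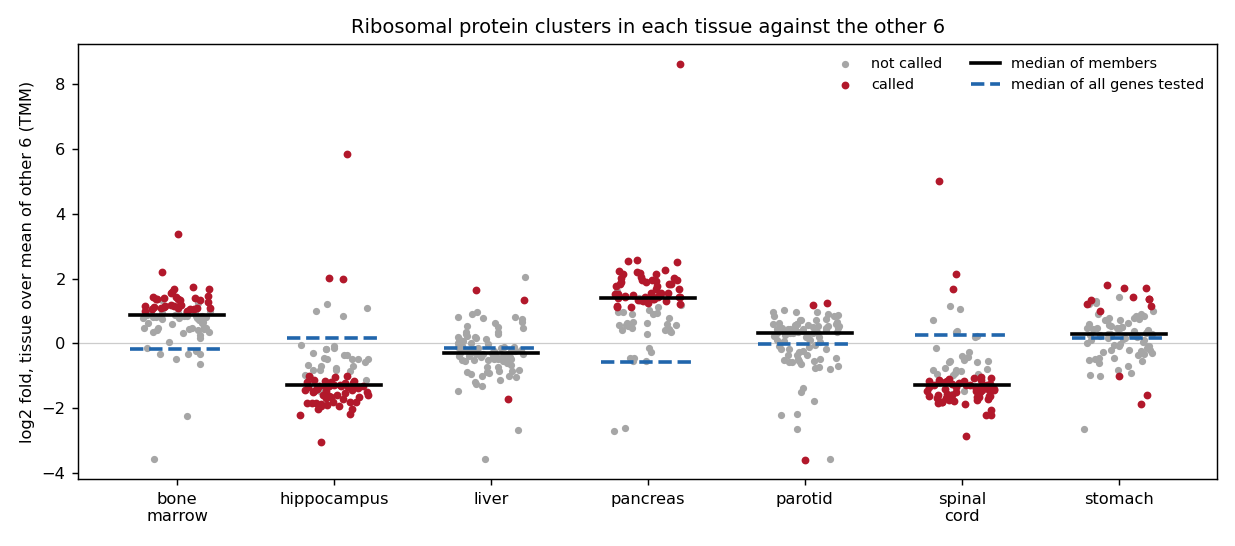
Log2 fold of each of the 89 tested clusters in each tissue over the mean of the other 6 after TMM scaling (points; red, called). Black bars mark the median cluster and blue dashes the median of all 14682 genes; the cluster median lies above the dash in bone marrow and pancreas and below it in hippocampus and spinal cord. With library totals as the scale the pancreas median becomes -1.64 and the hippocampus and cord medians become 0.05 and 0.22.

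Genes that work with the ribosome were read for comparison from lists chosen with results of these data known. Of 18 tested non-ribosomal mRNAs known to carry a TOP tract, 6 were higher in bone marrow and 0 lower, and in hippocampus 10 were lower and 0 higher with TMM, but 0 lower and 4 higher with library totals. The shares of all genes in these comparisons are those given above for each tissue and scale. In pancreas 7 were higher and 0 lower with TMM, and 0 higher and 16 lower with library totals, where 71.0% of all genes were lower. In hippocampus the leading ones were Tpt1, the translationally controlled tumour protein, at -2.35 ± 0.33, the elongation factor subunit Eef1b2 at -1.98 ± 0.30, Naca at -1.86 ± 0.30 and the poly(A)-binding protein Pabpc1 at -2.19 ± 0.35 (log2 fold ± SE, edgeR, adjusted p of at most 4.94e-05).
A list of elongation factors and related genes (12 tested) shared Eef1a1, Eef1b2, Eef1g, Eef2 and Tpt1 with that list. It also held the release factors Etf1 and Gspt1, so not every member is an elongation factor. In hippocampus it had 0 lower and 4 higher with library totals, against 475 and 8739 of all 14682 genes. With TMM it had 5 lower, among them Tpt1 and Etf1, and 2 higher, against 1891 and 4116 of all genes. The 2 higher were Eef1a2, the form of factor 1A made in neurons and muscle, at 7.03 ± 0.63 and 233 and 209 CPM in the male and female hippocampus libraries, and Eif5a2 at 5.30 ± 0.42 (log2 fold ± SE, edgeR, adjusted p of at most 1.65e-07).

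Of 36 tested initiation factors, 4 were higher and 1 lower in bone marrow, and in hippocampus 2 were higher and 11 lower with TMM, but 12 higher and 1 lower with library totals. In bone marrow 19.6% of all genes were higher, and in hippocampus with library totals 59.5% were. Of all 14682 genes, 2105 were lower in bone marrow. In hippocampus 4116 were higher and 1891 lower with TMM, and 475 were lower with library totals. Eif4ebp1, a repressor of initiation that mTOR inactivates, had 3.16 and 3.37 CPM in hippocampus. Its log2 fold there was -4.84 ± 0.50 (SE, edgeR, adjusted p = 2.04e-07). In pancreas it had 35.8 and 44.8 CPM and a log2 fold of 3.75 ± 0.28 (SE, edgeR, adjusted p = 1.16e-08).
Of 38 tested ribosome assembly genes, 11 were higher and 1 lower in bone marrow, against 2882 and 2105 of all 14682 genes. Npm1, a nucleolar chaperone, led with 93.5 and 79.1 CPM and a log2 fold of 2.91 ± 0.25 (SE, edgeR, adjusted p = 3.05e-08), before Bysl, Nop58 and the nucleolar protein Ncl. In pancreas, where most ribosomal proteins were higher with TMM, 1 of the 38 was higher and 0 lower with TMM, and 0 higher and 36 lower with library totals, against 6.33% of all genes higher with TMM and 71.0% lower with library totals.
Markers of dividing cells moved with the bone marrow values. Of 20 tested, 20 were higher there, led by Mki67, Birc5, Mcm2 and Rrm2, and their summed level was 4113 and 3781 CPM in the male and female bone marrow libraries, against 14.7 to 278 CPM in the others. The sum was lowest in pancreas, at 14.7 and 15.9 CPM, and there 0 of the 20 were called with TMM and 17 lower with library totals. Of all 14682 genes, 2882 were higher in bone marrow with TMM. In pancreas 929 genes were higher and 476 lower with TMM, and 10431 were lower with library totals. The part of dividing cells in the ribosomal values was not tested.

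To ask which proteins depart from the group, the same test was run with each library scaled to its summed ribosomal counts, which takes the common shift away and does not use the library total. In this fit 30 of the 89 clusters were called in at least 1 tissue, against 96.3% of all genes. Of the 66 clusters with 1000 counts or more, 16 were called somewhere, and of the 23 with fewer, 14 were. Bone marrow had 1 cluster higher and 8 lower, against 10.2% and 31.9% of all genes. Hippocampus had 9 higher and 3 lower (all genes 53.2% and 3.93%), and spinal cord 9 higher and 1 lower (all genes 62.8% and 1.24%). Liver had 9 higher and 0 lower (all genes 26% and 6.48%), and pancreas 2 higher and 8 lower (all genes 2.52% and 41.4%). Parotid had 2 higher and 2 lower (all genes 8.98% and 4.88%), and stomach 5 higher and 4 lower (all genes 13.8% and 6.99%). Without both stomach libraries, 49 of the 54 calls in the other 6 tissues were kept. With the offset for G and C bases, 47 of the 63 calls in all 7 tissues were kept, among them 5 of 10 in pancreas and 4 of 9 in stomach. Without the offset, the log2 folds of the 66 larger clusters varied with the G and C bases of their leading tags. The rank correlation was 0.402 in stomach, 0.342 in liver and 0.325 in parotid. It was -0.517 in hippocampus, -0.361 in spinal cord, -0.266 in pancreas and -0.139 in bone marrow. What sets these correlations was not tested.

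Rps27l was called in 5 tissues in this fit, more than any other cluster with 1000 counts or more; Rps9 was called in 4. It is a close paralog of Rps27, a zinc finger protein of the small subunit, and is known as a target of the tumour suppressor p53. Their tags are distinct.
Rps27l: GATCtcctattttggtgtca
Rps27: GATCtccttcatccctctcc
Rps27l made up 1.16% and 1.57% of the ribosomal counts in the male and female liver libraries, above all 12 others at 0.139% to 0.915%. In pancreas it made up 0.912% and 0.832%, and in parotid 0.915% and 0.792%. In hippocampus it made up 0.158% and 0.139%, below all 12 others at 0.166% to 1.57%, and in spinal cord 0.211% and 0.166%. Bone marrow, at 0.308% and 0.316%, lay between.
The log2 folds against the group were 1.81 ± 0.27 in liver (adjusted p = 1.11e-05), 1.07 ± 0.28 in pancreas (adjusted p = 0.00509), 1.04 ± 0.28 in parotid (adjusted p = 0.0147), -1.90 ± 0.36 in hippocampus (adjusted p = 0.000105) and -1.50 ± 0.35 in spinal cord (adjusted p = 0.000773; all SE, edgeR). The call in parotid was lost without the male or the female parotid library, at adjusted p = 0.386 and 0.104. Without the male stomach library the pancreas and parotid folds, at 0.98 and 0.94, fell short of a 2-fold change. The pancreas call was lost without the male pancreas library, at adjusted p = 0.131, and the cord call without the female cord library, at adjusted p = 0.0507.

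As a share of the pair, Rps27l gave 58.8% and 50.6% of the counts in the male and female liver libraries, 57.3% and 53.4% in pancreas and 50.2% and 46.5% in parotid. It gave 32.0% and 33.8% in bone marrow, 23.2% and 24.8% in spinal cord and 21.2% and 19.5% in hippocampus. The 2 stomach libraries differed, with 19.3% in the male and 38.3% in the female, and their exact 95% intervals (17.2% to 21.5%, and 36.4% to 40.3%) did not overlap. The libraries of liver, pancreas and parotid all lay above those of the other 4 tissues.

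**Figure D3:**
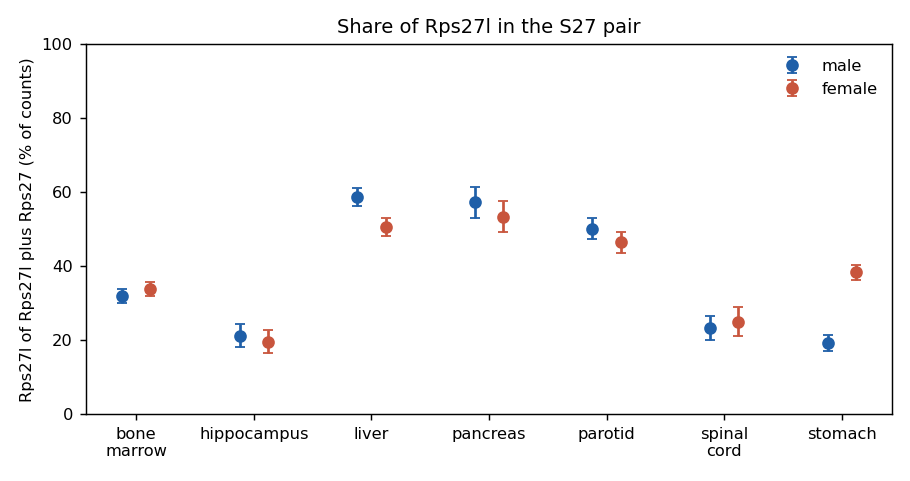
Share of Rps27l in the summed counts of Rps27l and Rps27, in the male and female library of each tissue (points; error bars are exact 95% intervals, counting error only). Liver, pancreas and parotid lie between 46.5% and 58.8%, hippocampus and spinal cord between 19.5% and 24.8%.

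The other like-titled proteins were rare, except Rpl36al. Rpl36al had 10337 counts in the 14 libraries and Rpl36a, its X-linked parent, 24, so that Rpl36al made up 99.8% of the pair's counts (exact 95% interval 99.7% to 99.9%). The leading tag of Rpl36a held only 41.7% of its 24 counts, and the main tag of that protein may be assigned elsewhere. The interval covers counting error only, so this share may not reflect the use of the 2 genes. Rpl22l1 had 80 counts against 11907 for Rpl22, 0.667% of the pair. It made up 1.20% and 2.34% of the pair in the male and female hippocampus libraries, against 0% to 1.33% in the other 12, so that only the female hippocampus library lay above all the others. Its log2 fold against the group in hippocampus was 1.96 ± 0.61 (SE, edgeR, adjusted p = 0.00842).
Rpl7l1 had 150 counts against 17510 for Rpl7. It made up 3.35% and 2.85% of that pair in the male and female liver libraries, and its log2 fold against the group in liver was 2.10 ± 0.42 (SE, edgeR, adjusted p = 0.000393). All 12 other libraries were lower in its share of ribosomal counts.
Rpl3l, a form of Rpl3 made in striated muscle, had 46 counts, too few for the test. There were 14 and 7 in the male and female spinal cord libraries, 9 and 9 in parotid, 3 and 3 in bone marrow, 1 and 0 in stomach, and 0 in both libraries of hippocampus, liver and pancreas. A count of 0 allows up to 1.49 CPM in the female liver library and less in the other 5. Skeletal muscle markers moved with it: they summed to 737 and 411 CPM in the cord and 361 and 277 CPM in the parotid libraries (male and female), where 10 of 10 tested were called higher. They summed to 0.605 to 71.6 CPM in hippocampus, liver and pancreas. They also reached 372 CPM in the male stomach library, where Rpl3l had 1 count, and their part in the Rpl3l values was not tested.

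Among the larger clusters, Rps9, which takes part in decoding, made up 1.60% and 1.85% of ribosomal counts in the male and female liver libraries, against 0.449% to 3.15% (median 0.714%) in the others. Its log2 fold against the group was 1.08 ± 0.35 in liver (adjusted p = 0.0181), -1.08 ± 0.41 in hippocampus (adjusted p = 0.0278) and -1.11 ± 0.42 in pancreas (adjusted p = 0.0358; all SE, edgeR). Without both stomach libraries the folds were 1.28, -0.92 and -0.97, of which the last 2 fell short of a 2-fold change. Rpl4, a large protein of the exit tunnel, made up 0.730% and 0.722% in liver and 0.0728% and 0.124% in pancreas, with log2 folds of 1.34 ± 0.48 in liver and -1.96 ± 0.66 in pancreas (SE, edgeR, adjusted p = 0.0350 and 0.0206). Without both stomach libraries these were 1.66 ± 0.16 and -1.78 ± 0.24 (SE). Rps3 and Rpl7a were lower in pancreas than in any other library as shares of the group. Rps3 made up 0.967% and 1.05% in pancreas, against 1.64% to 2.43% elsewhere, a log2 fold of -1.02 ± 0.29 (SE, edgeR, adjusted p = 0.00898). Rpl7a made up 0.469% and 0.514% there, against 0.654% to 2.10% elsewhere, a log2 fold of -1.12 ± 0.36 (SE, edgeR, adjusted p = 0.0157). With the offset for G and C bases the pancreas folds of Rps3, Rpl7a and Rps27l, at -0.99, -0.96 and 0.98, fell short of a 2-fold change, and so did those of Rps9 in hippocampus and pancreas, at -0.95 and -0.998, while Rpl4 stood at 1.03 in liver and -1.77 in pancreas.

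Clusters with under 1000 counts made up most of the departures in the nervous tissues. Those titled L27 (Rpl27, 805 counts), L23a (Rpl23a, 106 counts) and S15a (Rps15a, 247 counts) were called higher in both hippocampus and spinal cord. So was a second S27a cluster (Mm.180003), which at 1012 counts lies just above that limit. Rpl23a had 17.01 and 10.5 CPM in hippocampus and 9.08 and 8.79 CPM in spinal cord (male and female libraries), and a median of 0 CPM in the 12 libraries outside hippocampus. Rpl27 had 38.0 and 48.4 CPM in hippocampus and 53.6 and 48.3 CPM in spinal cord, and it was also higher in bone marrow, at 85.8 and 42.5 CPM. Such a cluster may hold a variant or a copy of the gene, and the main tag of the same protein may be assigned elsewhere. The cluster Mm.386780, titled S12 but with an accession of the podocyte gene Nphs1, had 9.81 and 8.32 CPM in the pancreas libraries, against 0 to 1.73 CPM in the others.

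**Figure D4:**
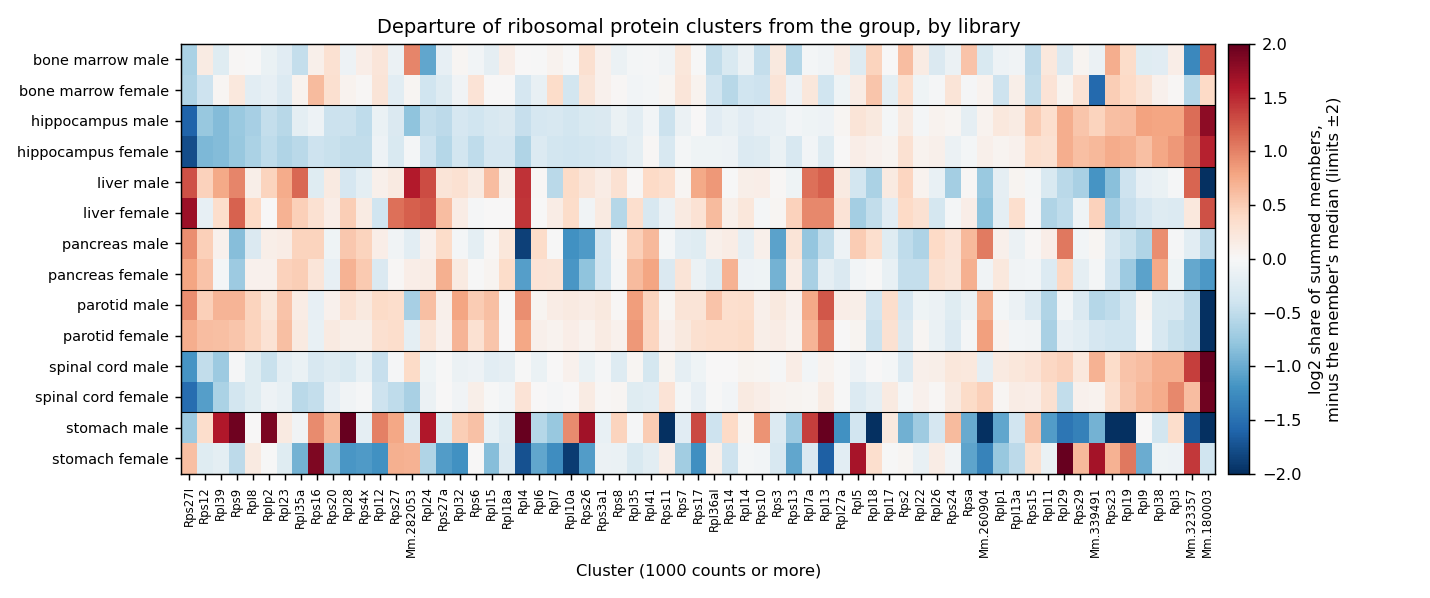
Departure of clusters with 1000 counts or more from the group (1 of the 66 is not reported here): colour gives the log2 share of the summed ribosomal counts in a library minus that cluster's median over the 14 libraries (scale cut at 2 in both directions). Rps27l stands at the left end with low shares in hippocampus and spinal cord and high ones in liver; the rank correlation between male and female shares is 0.340 in stomach and 0.907 to 0.995 in the other tissues.

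Of the 89 clusters, 0 were called between male and female libraries over the 7 tissues at an adjusted p under 0.05 (edgeR quasi-likelihood test), against 0.0613% of all genes, and 2 had an unadjusted p under 0.05, against 3.32% of all genes. DESeq2 and limma voom also called 0. The smallest p-values belonged to a second L15 cluster (Mm.2050, log2 fold male over female -0.85 ± 0.33), a second S2 cluster (Mm.328846, -1.15 ± 0.55) and a second S13 cluster (Mm.345443, -0.90 ± 0.44; SE, edgeR, adjusted p = 0.9999 for each). Males were higher in 3, 2 and 2 of the 7 tissues for these.

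The stomach pair was the exception. When 1 tissue at a time was given a separate male over female term, 16 clusters were higher in the male and 25 in the female stomach library of 89 tested, against 11.7% and 14.1% of all genes. The 6 other tissues gave 0 each, against at most 0.0136% of all genes in either direction. That share was 0.0136% for male higher in liver, and 0.00681% for female higher in liver and for male higher in hippocampus, parotid and spinal cord. In those 6 tissues the difference from the other pairs passed for 0 clusters, against 0.00681% of all genes in liver, pancreas and parotid. The stomach difference itself departed from that in the other 6 pairs for 43 clusters, against 22.3% of all genes. This fit assumes that the stomach pair varies like the others, and with 1 library per sex nothing checks that.

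Rpl19, for example, had 243 CPM in the male and 3582 CPM in the female stomach library, a log2 fold of -4.02 ± 0.38 (SE, edgeR, adjusted p = 3.97e-22). Rps23 had 443 and 5384 CPM, and Rpl29 had 99.9 and 1760 CPM. In the other direction, Rpl4 had 870 CPM in the male and 45.5 CPM in the female stomach library, a log2 fold of 4.12 ± 0.35 (SE, edgeR, adjusted p = 3.70e-28). Rpl13 had 1441 and 88.0 CPM, and Rpl28 had 933 and 101 CPM. These 6 were chosen after their values were seen.

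Over the 66 clusters with 1000 counts or more, the rank correlation between male and female shares of the group was 0.340 in stomach, and 0.907 to 0.995 in the other 6 tissues. Against the mean of the other 6 tissues, the male stomach library correlated at 0.494 and the female one at 0.829. The clusters share the libraries and are not independent, so these values only describe. Tags of clusters that differed strongly are shown with G and C in capitals after the lower-case cut site. The first 4 were lower and the last 3 higher in the male stomach library.
Rpl29: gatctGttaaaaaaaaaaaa
Rpl19: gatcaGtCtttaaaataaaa
Rpl18: gatcttaaCtGttaataaaa
Rps23: gatcataaaatttGaCaatG
Rpl4: gatcCaGCGCaGGGGGCCCt
Rpl13: gatcCGCaGGCGCaaGGCCC
Rpl28: gatctGCGtatGGCGGCCat
The first 4 tags hold 1, 2, 2 and 3 G or C among 16 bases, and the last 3 hold 13, 13 and 10. Of 27 tested clusters whose leading tag holds 6 or fewer, 0 were higher and 16 lower in the male stomach library. Of 31 with 9 or more, 13 were higher and 2 lower. Across the 66 clusters the rank correlation between G and C bases and the log2 ratio of male to female share was 0.721 in stomach. It lay between -0.520 (pancreas) and 0.219 (liver) in the other tissues, and across 3434 other genes in stomach it was 0.698. What sets this difference, in the tissue or in the library, was not tested.

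**Figure D5:**
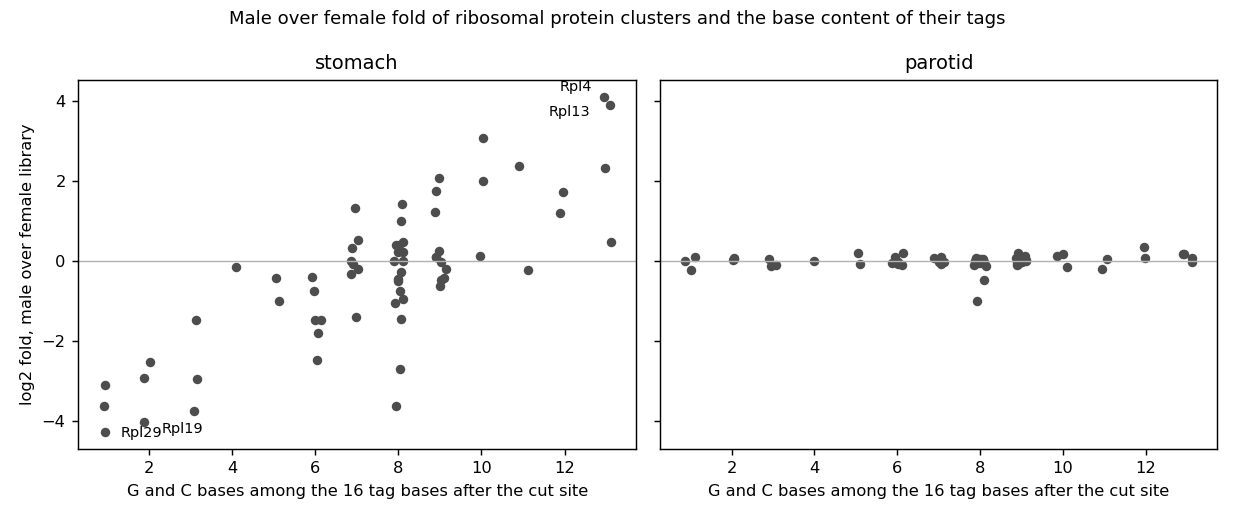
Log2 fold of the male over the female library for the 66 clusters with 1000 counts or more, against the number of G and C bases among the 16 tag bases after the cut site, in stomach (left) and parotid (right). In stomach the folds run from -4.27 for Rpl29 to 4.12 for Rpl4 and climb with the base count; in parotid they lie between -0.997 and 0.347.

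Gene starts were searched for the TOP tract described above. Whether the tract goes with the tissue pattern of a cluster was not tested. RefSeq promoters (GRCm38.p6, 250 bases before to 50 after the annotated start) were found for 58 of the ribosomal protein names, Rps19bp1 not counted. A start on C followed by at least 4 pyrimidines, on the transcribed strand, was present in 12 of 58 (20.7%), against 673 of 27025 promoters (2.49%). A C followed by at least 6 pyrimidines anywhere from 15 bases before to 20 after the start was present in 27 of 58 (46.6%), against 16.03% of all. The motif CCGGAAG on either strand, the core bound by ETS factors such as GABPA, was in 24 of 58 (41.4%), against 9.12%. TATAAA in the 40 bases before the start, on the same strand, was in 1 of 58 (1.72%), against 2.55%. A match describes these letters only, and the annotated start may be off by some bases.

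The 30 bases around the start of 4 genes are shown, with the pyrimidine tract in capitals and the annotated start at base 16. They lie, in the order given, at chr2:39005117-39005146 (minus strand), chr4:86857353-86857382 (minus strand), chr7:141447636-141447665 (plus strand) and chr11:114668565-114668594 (plus strand) of GRCm38.p6.
Rpl35: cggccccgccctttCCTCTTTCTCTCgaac
Rps6: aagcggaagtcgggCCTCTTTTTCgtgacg
Rplp2: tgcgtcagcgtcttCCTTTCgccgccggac
Rpl38: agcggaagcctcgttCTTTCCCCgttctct
Rps6, the small subunit protein phosphorylated by the kinase S6K, and Rpl35 were called lower in hippocampus and spinal cord with TMM, at log2 folds of -1.73 ± 0.30 and -1.41 ± 0.30 for Rps6 and -1.55 ± 0.30 and -1.64 ± 0.30 for Rpl35 (SE, edgeR, adjusted p of at most 0.000855). Rpl38 was not called in hippocampus or spinal cord, at -0.49 ± 0.32 and -0.77 ± 0.32 (SE, edgeR, adjusted p = 0.228 and 0.0667).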

How the data were processed

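Counts of 20-base tags at DpnII sites were deposited by the authors for 14 libraries, per the labels' protocols. No label or header names the aligner, the genome build or the meaning of the numeric tag code. Codes 1 to 4 were read as sense tags, and column counts were summed per UniGene cluster. The members and the gene lists were chosen with earlier results of these data known.

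Each tissue was compared with the mean of the other 6, and male with female over tissues, with edgeR 4.0.16 (R 4.3.3) by quasi-likelihood with TMM scaling, its filter on low counts and sex as a term, on 6 residual degrees of freedom. Standard errors are the log2 fold over the square root of F. A second fit used the summed ribosomal counts as library size. A call needs an adjusted p under 0.05 and, except for sex, a fold of at least 2. CPM uses gene counts. Named clusters are the 6 most abundant, up to 4 called per tissue and direction with the smallest adjusted p in each fit, titles with like and their partners, the stalk proteins, the 3 with the smallest p for sex, and up to 4 genes of a list in the tissue with the most calls. Other clusters named for stomach, for promoters or for low counts, Rps9 and Rpl4 in liver and pancreas against the group, and Eif4ebp1 in pancreas were chosen after their values were seen. Some genes and a tag sequence are not reported here. Alternatives used DESeq2 1.42.0 and limma 3.58.1. The labels do not say that the male and female libraries are replicates of more than 1 animal each, so p-values measure only the spread between these libraries.

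A count of 3 equals 0.867 to 1.56 CPM by library. On simulated data for the liver comparison (12829 genes), 19% of 2-fold and 85% of 4-fold changes were recovered.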

Additional observations from a re-analysis of the deposited data

Results flagged for a closer look

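The male over female fold in stomach departed from that in the other 6 tissues for 43 ribosomal clusters (edgeR quasi-likelihood test of the difference, adjusted p under 0.05). The difference was -4.56 on the log2 scale for Rpl29, -4.14 for Rpl19 and -3.95 for a second cluster titled L5 (Mm.323357), and 4.05 for Rpl4, 3.73 for Rpl13 and 3.20 for Rpl28. The 43 were among 89 clusters tested, against 22.3% of all genes. With 1 stomach library per sex, nothing checks that this pair varies like the others. Across 3434 other genes in stomach, the log2 ratio of male to female also rose with the G and C bases of the tag (rank correlation 0.698). What sets the difference was not tested.

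Tags of the same clusters that the comparisons did not use also held counts. Codes 5 and 6 held 6709 counts over 77 clusters. Codes 11 to 16, read here as the reverse strand, held 41699 counts over 104 clusters, 3.01% of the sense counts, against 6.23% for the other UniGene clusters, and codes 21 to 26 held 7250 counts over 90 clusters. There were no control samples to set these against.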

How the results depend on the processing

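With library totals as the scale the clusters called numbered 67 in bone marrow, 15 in hippocampus, 5 in liver, 75 in pancreas, 17 in parotid, 14 in spinal cord and 21 in stomach. The majority of these calls were higher in hippocampus and cord and lower in pancreas. Of all 14682 genes, 8739 were higher in hippocampus and 9840 in cord on that scale, and 10431 lower in pancreas. Relative to the median gene, the median cluster stayed lower in hippocampus and cord, by -1.40 and -1.47, and higher in pancreas, by 1.62. Without a minimum fold 53 clusters were called in bone marrow, 8 in liver and 8 in parotid. Liver gave 7 with DESeq2 size factors, 7 with DESeq2, 5 with limma voom, 10 without the filter, 5 with the most abundant tag only, 5 with the tag composition offset and 13 without stomach. Parotid gave 5 with limma voom, 5 without the filter and 10 without stomach, and stomach gave 7 with limma voom. Sex gave 1 without the filter and 41 with a stomach term of its own. Leaving out 1 library gave 20 to 42 calls in bone marrow, 30 to 62 in hippocampus, 1 to 14 in liver, 25 to 60 in pancreas, 1 to 12 in parotid, 28 to 69 in spinal cord, 7 to 30 in stomach, 0 to 0 for sex and 26 to 51 relative to the group; the 30 in stomach, without the female library, were 13 higher and 17 lower. The share of all counts was 7.08% in bone marrow, 2.67% in hippocampus, 2.2% in liver, 1.22% in pancreas, 1.84% in parotid, 2.36% in spinal cord and 4.10% in stomach, and without the 10 most abundant genes 15.3%, 4.87%, 3.91%, 6.75%, 8.78%, 4.51% and 9.38% in that order. Without mitochondrial genes it was 9.13% in bone marrow, 4.78% in hippocampus, 2.96% in liver, 2.09% in parotid and 4.40% in spinal cord, with the most abundant tag 9.38%, 4.05%, 2.07% and 3.87% in bone marrow, hippocampus, parotid and cord, and with 1 cluster per title 3.75% in hippocampus and 1.99% in parotid. The large subunit share without the 5 most abundant clusters was 56.7%, 62.6%, 56.3%, 57.7%, 57.3% and 60.6% from bone marrow to cord, and with the most abundant tag 51.7% in hippocampus and 52.8% in cord. With the most abundant tag, Rps27l made up 36.9%, Rpl22l1 0.857% and Rpl36al 99.9% of their pairs. In pancreas with library totals Rpsa turned to -0.77, Rps27a to -0.84 and Rps4x to -0.89, and relative to the group in stomach Rpl4 ran from -1.81 (without the male stomach library) to 2.78 (without the female one) and Rps9 from -0.54 to 1.94. Over the 77 named results and 1634 alternatives, 1479 kept direction and call, 149 lost the call (103 of them with a library left out), 1 gained it and 5 reversed. The cause of these changes was not tested. Tissue and sex were both terms of the fit, so male and female libraries were compared within tissues; the labels give no replicate numbers for a further block.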
